A study of Mus musculus with 32 samples.

Results

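A set of 78 nuclear genes named for proteins of the mitochondrial ribosome was followed in mouse bone marrow-derived macrophages. Membership rests on the symbol, so a gene named this way need not encode a ribosomal protein, Mrps36 being an example. Rows of the deposited count table were taken when the Entrez identifier mapped to a protein-coding gene whose symbol starts with Mrpl or Mrps and a digit, and when the row held at least 100 counts over all libraries. This gave 49 Mrpl genes, named for the large subunit, and 29 Mrps genes, named for the small subunit, out of 24885 identifiers. No row with such a symbol fell below the count limit: the lowest member was Mrps27 with 2774 counts, the highest was Mrpl18 with 34866, and the median was 7757.5. The members lie on 17 chromosomes, and each had counts in all 32 libraries.

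Mitochondria translate the few proteins of their own genome, all of them parts of the respiratory chain or ATP synthase, on a ribosome whose RNAs come from mitochondrial DNA. Its proteins are encoded in the nucleus, made in the cytosol and imported, so the members' mRNAs are a nuclear contribution to respiratory capacity. In macrophages, M-CSF sustains survival and division, LPS switches cells towards inflammatory metabolism, and TREM2 is a lipid-sensing receptor that signals through the adaptor Tyrobp.

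The cells came from T2KO mice, which carry the Trem2-/- alleles originally generated by Turnbull et al., and from WT mice, all on C57BL/6. They were kept overnight in complete RPMI with low or normal M-CSF, and some received LPS at 10 ng/ml for 4 hours. The protocol gives the M-CSF source as LCCM at 0.5% or 10%. Reading low as 0.5% and normal as 10% is an inference. The 8 groups, of 4 libraries each, were T2KO and WT in low M-CSF with LPS, T2KO and WT in low M-CSF without LPS, and the same 4 groups in normal M-CSF. The deletion is in every cell of the mouse, the cells are macrophages grown in culture, and nothing in the labels tells separate mice or cultures apart among the 4 libraries of a group. All p-values therefore measure the spread between these libraries, which may be technical.

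Total counts per library ranged from 3068863 to 15585423 with a median of 5596111. They lay between 3068863 and 6248835 in T2KO and between 3111552 and 4547552 in WT cells of low M-CSF with LPS, the groups on which the genotype result rests. Chi-square per degree of freedom was 4.03 to 37.3 for libraries 1 and 3, or 2 and 4, of a group. It was 9.73 to 81.5 for other pairs. Libraries 1 and 3, and 2 and 4, were the closest pairs (lowest values) of their group except in WT cells without LPS. There, in low M-CSF, libraries 2 and 4 had 17.8, against 14.7 for 3 and 4 and 17.5 for 1 and 4. In normal M-CSF, libraries 1 and 3 had 37.3, against 18.95 for 3 and 4 and 29.6 for 2 and 3. No pair matched within sampling noise. Counts after summing libraries 1 with 3 and 2 with 4 are given where they change a result. Trem2 itself averaged 6.01 ± 2.31 CPM in T2KO and 332 ± 47.4 CPM in WT cells of low M-CSF with LPS (SD, n = 4 each). In low M-CSF without LPS it averaged 115 ± 13.9 CPM in T2KO and 460 ± 70.1 CPM in WT cells. T2KO cells held 2.60% and 11.9% of the WT level in normal M-CSF with and without LPS. The T2KO libraries lay below the WT libraries in every setting (exact two-sided permutation p = 0.0286, the smallest that 70 arrangements can give). Reads from a part of Trem2 that the deletion leaves would not test the label. The 8 macrophage markers, Csf1r and Adgre1 among them, summed to 4393 to 11174 CPM in all libraries. Levels are TMM-scaled CPM, which are counts scaled to library size and corrected for composition. The TMM factors were 0.598 to 0.671 in T2KO and 0.664 to 0.752 in WT cells of low M-CSF with LPS, and 0.903 or more elsewhere.

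The study's title concerns energetic and biosynthetic metabolism, and 3 questions apply to these genes: how they differ with the supply of M-CSF, with loss of Trem2, and with LPS. The promoters of 5 members that recur in the answers are shown first, from 250 bases before to 50 bases after the transcription start (RefSeq, GRCm38.p6, 5′ to 3′ on the gene's strand). Mrpl12, the stalk protein that contacts translation factors, was the stalk member lower in T2KO cells. Mrps18a, one of 3 paralogs of a single bacterial protein, had the smallest adjusted p between the genotypes. Mrpl41 and Mrpl28 had the largest falls with low M-CSF in LPS-treated T2KO cells among Mrpl genes, and Mrpl52 the largest LPS rise. Capitals mark letters of the 7 motifs searched on both strands.
Mrpl12 promoter, chr11:120484387-120484686, plus strand: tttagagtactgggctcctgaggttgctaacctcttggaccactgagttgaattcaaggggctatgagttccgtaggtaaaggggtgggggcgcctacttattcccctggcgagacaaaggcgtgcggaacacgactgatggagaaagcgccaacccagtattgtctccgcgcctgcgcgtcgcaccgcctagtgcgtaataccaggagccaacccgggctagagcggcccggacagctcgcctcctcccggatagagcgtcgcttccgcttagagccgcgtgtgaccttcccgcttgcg
Mrps18a promoter, chr17:46110754-46111053, plus strand: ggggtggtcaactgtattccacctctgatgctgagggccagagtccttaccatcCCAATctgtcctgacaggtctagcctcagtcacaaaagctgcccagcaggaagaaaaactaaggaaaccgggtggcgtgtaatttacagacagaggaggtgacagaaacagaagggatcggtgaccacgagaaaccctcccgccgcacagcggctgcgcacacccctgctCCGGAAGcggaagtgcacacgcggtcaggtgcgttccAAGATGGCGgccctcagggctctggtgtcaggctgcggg
Mrpl41 promoter, chr2:24975049-24975348, minus strand: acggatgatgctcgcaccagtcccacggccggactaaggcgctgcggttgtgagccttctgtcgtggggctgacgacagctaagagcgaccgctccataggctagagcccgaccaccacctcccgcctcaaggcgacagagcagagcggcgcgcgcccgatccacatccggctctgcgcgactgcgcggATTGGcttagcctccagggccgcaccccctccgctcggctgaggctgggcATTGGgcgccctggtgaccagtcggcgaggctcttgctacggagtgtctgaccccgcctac
Mrpl28 promoter, chr17:26123253-26123552, plus strand: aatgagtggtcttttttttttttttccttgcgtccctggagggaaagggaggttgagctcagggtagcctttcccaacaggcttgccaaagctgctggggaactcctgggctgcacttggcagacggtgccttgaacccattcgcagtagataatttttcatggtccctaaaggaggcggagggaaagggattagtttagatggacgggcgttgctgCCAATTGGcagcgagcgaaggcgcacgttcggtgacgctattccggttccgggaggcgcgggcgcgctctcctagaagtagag
Mrpl52 promoter, chr14:54426659-54426958, plus strand: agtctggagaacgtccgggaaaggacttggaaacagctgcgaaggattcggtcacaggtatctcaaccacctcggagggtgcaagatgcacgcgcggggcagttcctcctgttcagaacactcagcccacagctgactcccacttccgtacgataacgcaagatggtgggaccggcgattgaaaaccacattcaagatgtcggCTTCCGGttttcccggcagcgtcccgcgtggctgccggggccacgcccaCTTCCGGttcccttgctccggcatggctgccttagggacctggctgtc
The Mrps18a window holds a CCAAT box, CCGGAAG and AAGATGGCG, the letters known to be bound by CCAAT, ETS (GABP) and YY1 factors. Mrpl41 and Mrpl28 each hold 2 CCAAT matches, those of Mrpl28 overlapping on opposite strands, and Mrpl52 holds CCGGAAG at 2 places on the minus strand. Mrpl12 holds none of the 7.

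Promoter windows were found for 69 of the 78 members, and the other members were Mrpl4, Mrpl13, Mrpl15, Mrpl19, Mrpl38, Mrpl54, Mrps28, Mrps34 and Mrps35. CCGGAAG stood in 26 of these 69 members (37.7%), against 21.5% of the 9027 other genes tested and 9.93% of all 27025 genes. Shares are per gene: a member with several windows, such as Mrpl48, counted when any of them held the letters. AAGATGGCG stood in 8 (11.6%), against 3.82% and 1.64%. CCAAT stood in 27 (39.1%), against 43.3% and 41.1%, so its share in members was close to that in other genes. The palindromic NRF1 consensus, searched as an exact match, stood in 3 (4.35%, against 2.49% and 1.07%). The E-box CACGTG, the core site of MYC, stood in 5 (7.25%, against 12.1% and 8.09%). The ZNF143 letters ACTACAA also stood in 5 (7.25%, against 5.33% and 3.78%). The NF-kB consensus of the immunoglobulin kappa enhancer, also searched as an exact match, stood in none (against 0.199% and 0.174%). No motif contains another. The median GC content of the windows was 58.0% in members, 60.7% in other genes tested and 52.8% in all genes. These shares describe letters only.

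Low M-CSF went with lower mitochondrial ribosomal protein mRNA in both genotypes, with and without LPS. In T2KO cells with LPS, 69 of 78 members were lower in low than in normal M-CSF and 0 were higher (edgeR quasi-likelihood test, Benjamini-Hochberg adjusted p under 0.05). Among all 11244 genes tested, 59.2% differed there, 32.8% being lower and 26.5% higher. In WT cells with LPS, 55 members were lower and 0 higher, against 24.2% and 21.4% of all genes (45.6% in either direction). Without LPS, 45 members were lower and 2 higher in T2KO cells (all genes 21.7% and 26.6%, 48.2% in either direction), and 54 were lower and 1 higher in WT cells (all genes 21.9% and 22.4%, 44.3% in either direction). The median log2 fold change of the members, beside that of all genes, was -1.19 and -0.14 in T2KO and -0.78 and -0.10 in WT cells with LPS. It was -0.56 and 0.10 in T2KO and -0.64 and 0.01 in WT cells without LPS. With RLE in place of TMM scaling the LPS medians of members and all genes moved together, to -1.02 and 0.02 in T2KO and -0.67 and 0.01 in WT cells. The distance between them was -1.05 with TMM and -1.04 with RLE in T2KO cells. With libraries summed in pairs, 26 members passed in T2KO cells without LPS (all genes 29.4%, so a share close to the background) and 26 in WT cells (all genes 24.7%). Of these, 25 were lower and 1 higher in T2KO, and 26 lower and 0 higher in WT cells.

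The summed level of the 78 members gives the size of the difference per library. With LPS it was 1892, 1998, 1962 and 2088 CPM in T2KO cells of low M-CSF (mean 1985 ± 81.9, SD, n = 4), against 3970, 3924, 3920 and 3826 CPM in normal M-CSF (3910 ± 60.3). In WT cells with LPS it was 2789, 2603, 2556 and 2657 CPM in low (2651 ± 101) and 4114, 4035, 3942 and 3895 CPM in normal M-CSF (3997 ± 97.7). Low M-CSF thus left 50.8% of the normal level in T2KO and 66.3% in WT cells. Without LPS it left 68.1% in T2KO cells and 68.1% in WT cells, with means of 2484 ± 116 against 3646 ± 73.4 CPM in T2KO and 2454 ± 58.0 against 3605 ± 109 CPM in WT cells. All low libraries lay below all normal libraries of the same genotype and LPS setting. In bulk libraries a lower level can mean less of these mRNAs per cell or fewer cells of a type, and these cannot be told apart. The 20 cell cycle genes also moved with M-CSF: 20 in T2KO and 20 in WT cells without LPS, and 19 and 19 with LPS, were lower in low M-CSF. Of 9 neutrophil markers tested, 6 in T2KO cells with LPS, 6 in T2KO cells without LPS, 4 in WT cells with LPS and 2 in WT cells without LPS were higher in low M-CSF, and 0 were lower. With LPS the summed neutrophil markers were 233 to 397 CPM in low and 88.5 to 141 CPM in normal M-CSF in T2KO cells, and 181 to 207 CPM in low and 104 to 124 CPM in normal M-CSF in WT cells. Of 8 macrophage markers, 6 were higher and 1 lower in T2KO and 6 higher and 0 lower in WT cells with LPS, and 4 higher and 1 lower in T2KO and 5 higher and 1 lower in WT cells without LPS. The part of these genes in the result was not tested.

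**Figure D1:**
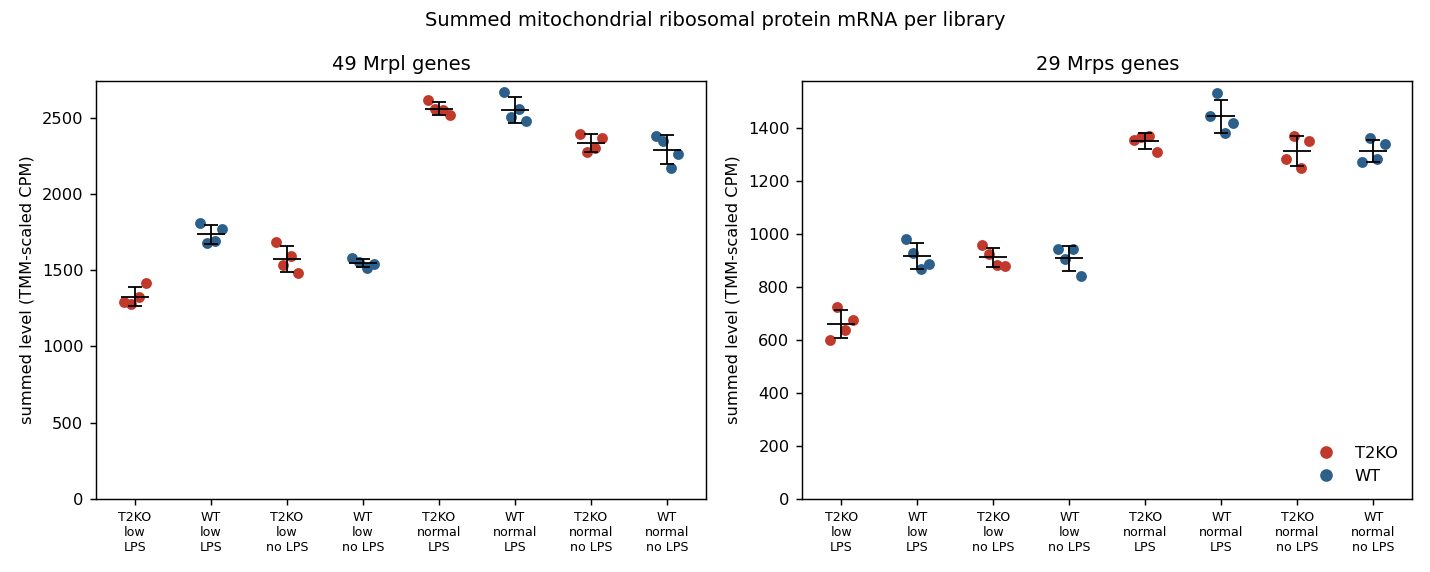
Summed level in TMM-scaled CPM (y axis, from 0) of the 49 Mrpl genes (left) and 29 Mrps genes (right) in each of the 8 groups (x axis); points are libraries, and the black marks show the mean ± SD of 4. In low M-CSF with LPS the T2KO libraries lie below the WT libraries in both panels, at 1327 ± 61.8 against 1737 ± 63.3 CPM for Mrpl and 658 ± 53.3 against 914 ± 49.97 CPM for Mrps genes, and all low M-CSF groups lie below the normal M-CSF groups.

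Genes of both names, Mrpl and Mrps, took part. The names do not follow the subunits throughout, since Mrps18a and Mrps30 are large-subunit proteins. With LPS, 42 of 49 Mrpl and 27 of 29 Mrps genes were lower in low M-CSF in T2KO cells, and 33 and 22 in WT cells. Without LPS the counts were 28 and 17 in T2KO and 33 and 21 in WT cells. The 4 M-CSF comparisons use separate libraries: 34 members were lower in all 4, 20 in 3, 9 in 2, 9 in 1, and Mrpl9, Mrpl21, Mrpl24, Mrpl36, Mrpl48 and Mrpl52 in none. Of all genes tested, 9.5% were lower in all 4, 6.71% in 3, 12.9% in 2, 16.7% in 1 and 54.3% in none. The libraries did not overlap, all low ones being below all normal ones, for 60 members in T2KO and 47 in WT cells with LPS. Among all genes the same held for 27.6% in T2KO and 20.7% in WT cells. Without LPS it held for 42 members in T2KO and 47 in WT cells, and for 20.5% and 20.9% of all genes.

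**Figure D2:**
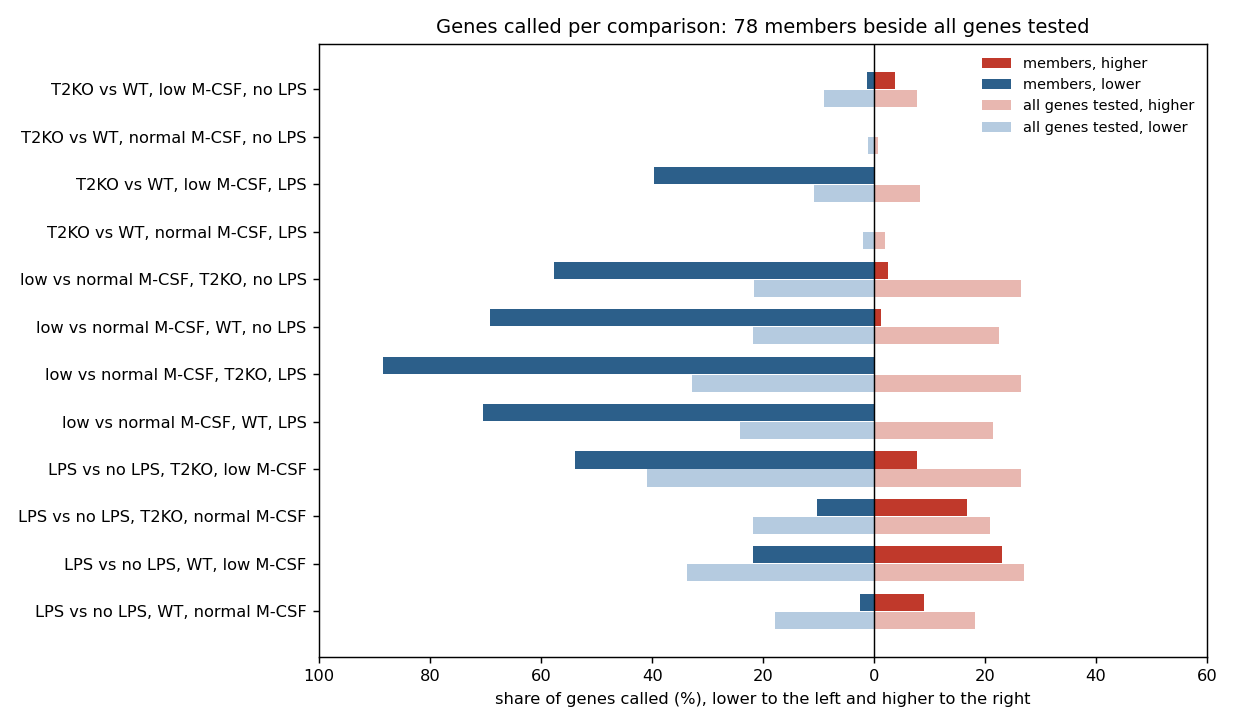
Share of genes with edgeR adjusted p under 0.05 (x axis, %, lower to the left of 0 and higher to the right) in each of 12 comparisons (y axis) for the 78 members (dark bars) and the 11244 genes tested (pale bars). The dark bars reach farthest to the left in the M-CSF comparisons, where 45 to 69 members were lower, and are absent in both genotype comparisons of normal M-CSF.

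Mrpl12, on chromosome 11 at 120484637 to 120488754 (GRCm38), binds the mitochondrial RNA polymerase as well as forming the stalk. With LPS it had 7.10, 10.7, 9.73 and 10.2 CPM in T2KO cells of low M-CSF, against 38.7, 38.6, 39.7 and 47.5 CPM in normal M-CSF. The log2 fold change was -2.13 ± 0.22 (SE, adjusted p = 2e-10). In WT cells without LPS the values were 15.6, 16.6, 18.4 and 21.2 CPM in low and 58.1, 46.1, 52.2 and 41.6 CPM in normal M-CSF, a fold change of -1.47 ± 0.19 (adjusted p = 8.9e-08). The low and normal libraries did not overlap in either pair. Mrpl11, which forms the base that carries the stalk, was lower with LPS by -1.41 ± 0.24 in T2KO and by -0.99 ± 0.23 in WT cells (adjusted p = 4.9e-06 and 0.00074).

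Mrps28 (chromosome 3, 8802146 to 8923857), a small-subunit protein, had the lowest fold changes between low and normal M-CSF without LPS. It had 2.13, 2.76, 7.34 and 2.82 CPM in T2KO cells of low M-CSF, against 16.8, 18.1, 20.9 and 20.9 CPM in normal M-CSF. In WT cells it had 5.74, 5.25, 5.69 and 3.19 CPM in low and 23.1, 12.9, 19.8 and 19.8 CPM in normal M-CSF. No low library reached a normal one, and the log2 fold changes were -2.34 ± 0.33 and -1.91 ± 0.33 (adjusted p = 2.7e-07 and 1.2e-05). Library 3 of the T2KO low M-CSF group stood above its 3 neighbours.

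Mrpl28 (chromosome 17, 26123503 to 26126613) had the lowest fold changes between low and normal M-CSF in LPS-treated cells, level with Mrps28 at -2.93 in T2KO cells. It had 3.40, 6.33, 8.45 and 5.34 CPM in T2KO cells of low M-CSF, against 44.8, 55.1, 48.9 and 34.4 CPM in normal M-CSF (-2.93 ± 0.25, adjusted p = 3e-12). In WT cells it had 8.95, 14.9, 9.70 and 11.6 CPM in low and 53.1, 33.5, 40.6 and 40.6 CPM in normal M-CSF (-1.91 ± 0.23, adjusted p = 3.2e-08). The groups were far apart in both genotypes. Mrpl28 is 1 of 10 members with under 40 counts in each of the 8 libraries of low M-CSF with LPS; the others are Mrpl2, Mrpl38, Mrpl41, Mrpl49, Mrps26, Mrps27, Mrps28, Mrps34 and Mrps35. Mrpl2, beside the peptidyl transferase centre, was lower by -1.88 ± 0.24 in T2KO and -1.86 ± 0.25 in WT cells with LPS. Without LPS it was lower by -0.54 ± 0.21 in WT cells (adjusted p = 0.034), and in T2KO cells its fold change of -0.30 ± 0.20 did not pass (adjusted p = 0.22).

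Other members with functional sites of the ribosome had the same direction. Mrps12, of the decoding centre, was lower with LPS by -1.25 ± 0.23 in T2KO and -0.82 ± 0.23 in WT cells (adjusted p = 1.7e-05 and 0.0032). Mrps7, of the head of the small subunit, was lower in all 4 comparisons and fell by 0.47 to 0.99 on the log2 scale. Mrpl3, a core protein near the catalytic centre, was also lower in all 4 and fell by 0.55 to 0.72. Mrpl58 (Ict1), a peptidyl-tRNA hydrolase that frees stalled ribosomes, was lower by -1.64 ± 0.23 in T2KO and -1.21 ± 0.22 in WT cells with LPS (adjusted p = 1.2e-07 and 3.7e-05). Mrps2 was lower in WT cells without LPS (-0.86 ± 0.23, adjusted p = 0.0021), and in T2KO cells without LPS its value was -0.10 ± 0.22.

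Only Mrpl24 and Mrpl9 were higher in low M-CSF in any of the 4 comparisons. Mrpl24, a core protein of the large subunit, had 91.2, 61.5, 86.2 and 67.5 CPM in T2KO cells of low M-CSF without LPS, against 37.7, 44.8, 36.8 and 45.7 CPM in normal M-CSF (0.89 ± 0.17, adjusted p = 3.2e-05). All 4 low libraries were above the normal ones. Its gene overlaps Rrnad1 on the other strand, and the strand setting of the counting is not given in the sources used here. Mrpl9 was higher without LPS by 0.53 ± 0.21 in T2KO and 0.79 ± 0.21 in WT cells (adjusted p = 0.036 and 0.0024). The T2KO call for Mrpl9 was lost without library 2 or 4 of the low or library 3 of the normal group.

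**Figure D3:**
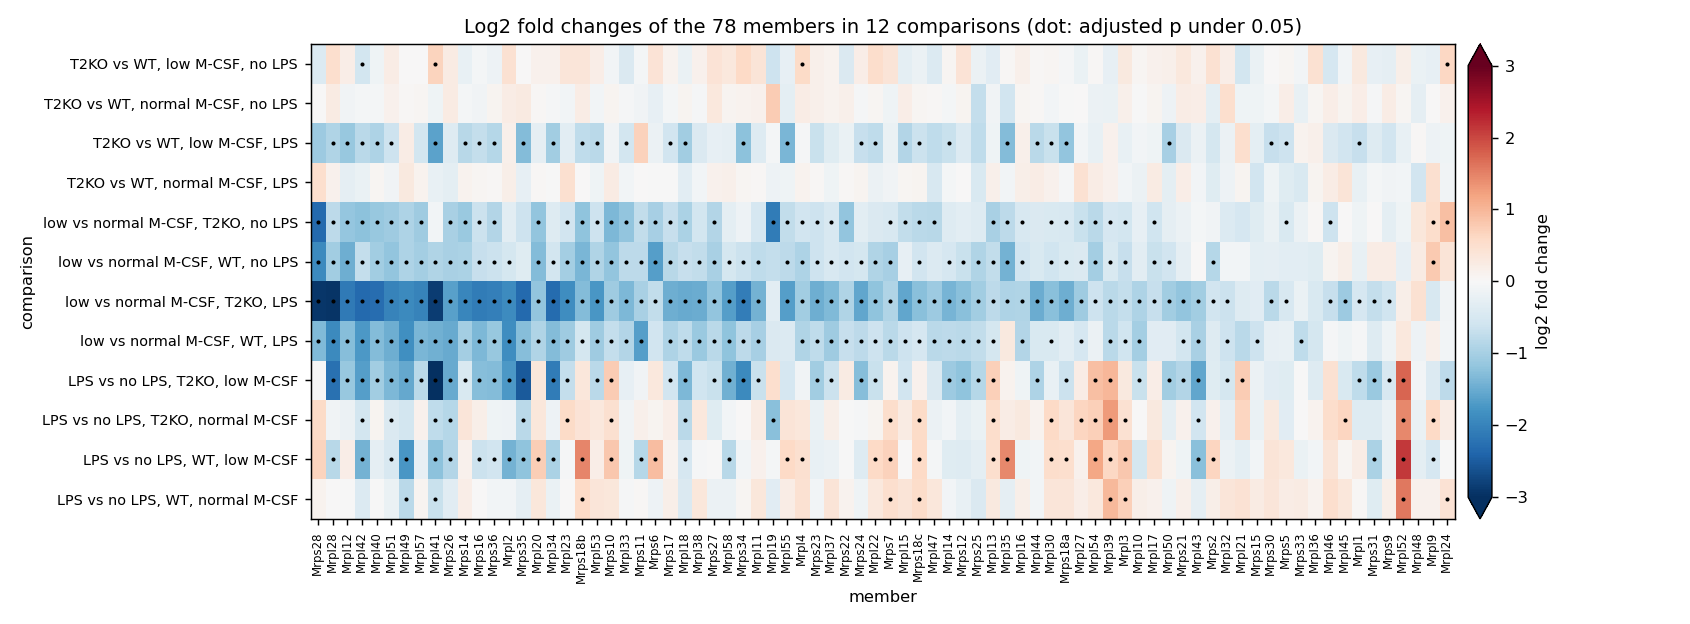
Log2 fold changes (colour, scale limited at -3 and 3) of the 78 members (x axis, ordered by their mean over the 4 M-CSF comparisons) in 12 comparisons (y axis); a dot marks edgeR adjusted p under 0.05. The 4 M-CSF comparisons are mostly blue, the genotype comparisons are pale except in low M-CSF with LPS, and the LPS comparisons hold members of both directions.

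Loss of Trem2 went with lower levels of these mRNAs in 1 of the 4 settings, low M-CSF with LPS. There 31 of 78 members were lower in T2KO than in WT cells and 0 were higher, whereas 10.9% of all genes were lower and 8.2% higher. The median log2 fold change was -0.49 for members and -0.05 for all genes (-0.42 and 0.01 with RLE scaling), and the members ranged from -1.60 to 0.70. Of the 78, 69 had a negative fold change. The 31 comprised 19 of 49 Mrpl and 12 of 29 Mrps genes, with medians over all members of -0.39 and -0.58. For 21 members all 4 T2KO libraries lay below all 4 WT libraries, and for 0 they lay above, beside 7.97% and 7.6% of all genes. The summed level was 1985 ± 81.9 CPM in T2KO and 2651 ± 101 CPM in WT cells (SD, n = 4 each), 74.9% of the WT level. It was 78.5% with RLE scaling and 66.5% in raw CPM.

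The count of 31 varied between settings. It was 20 without library 1 of the T2KO group (all genes 13.6%), 10 when the 2 groups were fitted alone (all genes 12.1%), and 4 when libraries 1 and 3 and libraries 2 and 4 were summed (all genes 4.03%). In those last 2 settings the members' share of calls in either direction was close to that of all genes, although all calls of members were lower. The 4 were Mrpl12, Mrpl41, Mrpl55 and Mrps18a.

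Mrps18a (chromosome 17, 46111004 to 46128908) sits in the large subunit despite its name. It had 12.0, 10.3, 15.6 and 18.5 CPM in T2KO cells, against 28.2, 32.7, 34.7 and 31.7 CPM in WT cells of low M-CSF with LPS. No T2KO library reached a WT library, and the log2 fold change was -1.18 with an adjusted p of 0.00015. Its gene overlaps Rsph9 on the other strand. The paralogs of the small subunit moved the same way: Mrps18b had 15.7, 18.7, 20.998 and 16.5 CPM in T2KO, against 25.2, 33.9, 29.5 and 33.4 CPM in WT cells (-0.75, adjusted p = 0.019). Mrps18c had 44.2, 41.3, 49.7 and 51.5 CPM in T2KO, against 64.6, 70.7, 76.4 and 82.1 CPM in WT cells (-0.65, adjusted p = 0.0022). All 3 paralogs showed T2KO and WT libraries that did not overlap.

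Mrpl12 had 7.10, 10.7, 9.73 and 10.2 CPM in T2KO, against 11.9, 26.5, 20.2 and 24.4 CPM in WT cells (-1.13, adjusted p = 0.00054). The lowest WT library, number 1, lay just above the highest T2KO library. Mrpl55, a large-subunit protein, had 6.48, 7.997, 3.84 and 14.6 CPM in T2KO, against 14.6, 20.7, 20.2 and 25.2 CPM in WT cells (-1.36, adjusted p = 0.00021). Mrpl15, a core protein of the large subunit, had 16.4, 11.3, 20.998 and 15.1 CPM in T2KO, against 26.5, 26.0, 35.1 and 30.8 CPM in WT cells (-0.88, adjusted p = 0.001). The 2 genotypes were separate for Mrpl15 and met at the edge for Mrpl55.

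Mrpl41 (chromosome 2, 24972470 to 24975098) had the lowest fold change, on few reads. It had 2.16, 3.67, 2.30 and 0.971 CPM in T2KO cells, from 7, 11, 9 and 2 counts, against 5.30, 10.3, 8.48 and 4.71 CPM in WT cells, from 16, 25, 21 and 11 counts (-1.60, adjusted p = 0.0018). The groups were separate. Mrps35 had 5, 5, 17 and 2 counts in T2KO and 24, 11, 3 and 21 counts in WT cells. Its groups overlapped, and its call (-1.30, adjusted p = 0.027) was lost without library 1, 2 or 4 of the T2KO or library 1 or 4 of the WT group (adjusted p = 0.0901, 0.073, 0.0674, 0.108 and 0.13).

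Mrpl18 had 33.0, 56.3, 33.8 and 43.2 CPM in T2KO, against 110, 91.8, 70.7 and 71.0 CPM in WT cells (-1.05, adjusted p = 0.0009). All WT libraries were higher than all T2KO libraries. The Mrpl18 gene overlaps Tcp1 on the other strand. Mrpl35 had 30.0, 34.3, 32.3 and 41.8 CPM in T2KO, against 153, 25.2, 113 and 44.1 CPM in WT cells (-1.29, adjusted p = 0.0016). WT libraries 1 and 3 were high and libraries 2 and 4 lay near the T2KO values, and the adjusted p was 0.0694 with the pairs summed. The largest positive values were 0.70 for Mrps11 and 0.50 for Mrpl21, and neither passed.

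**Figure D4:**
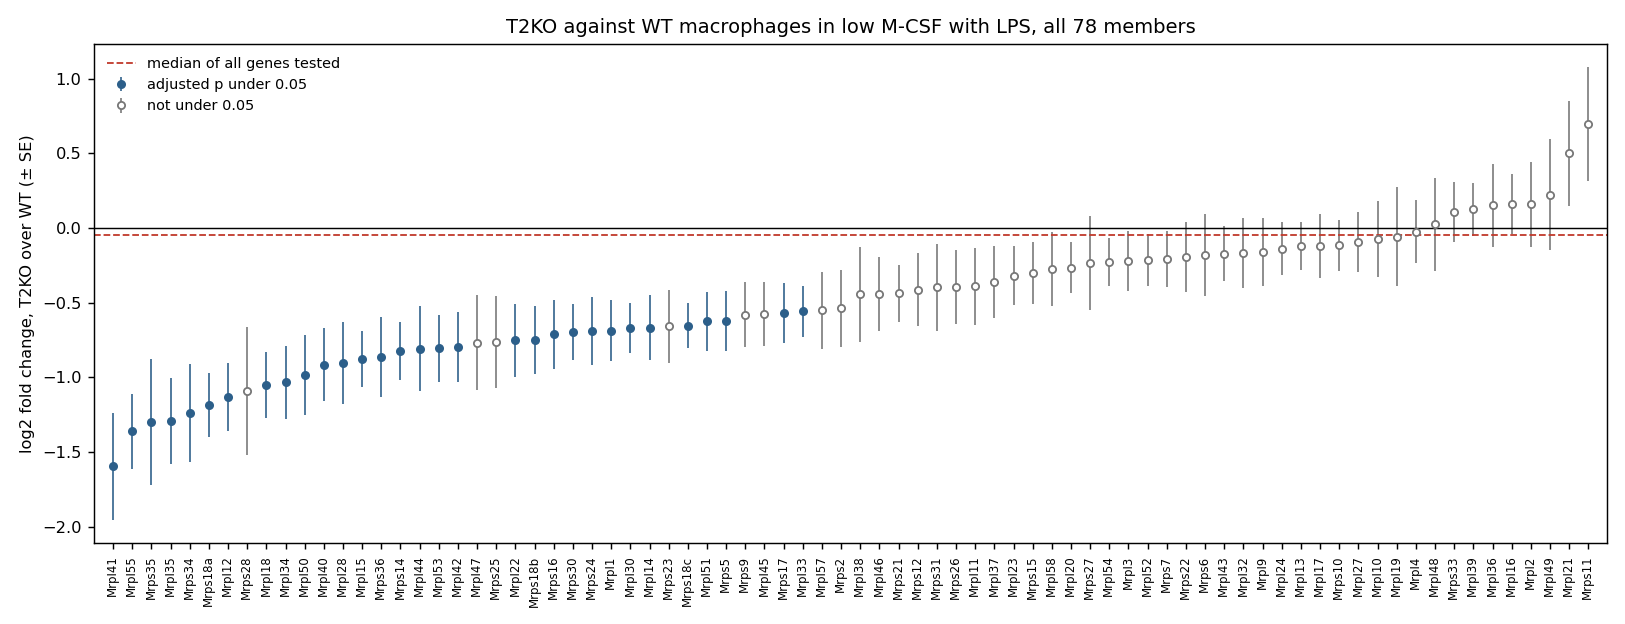
Log2 fold change of T2KO over WT cells in low M-CSF with LPS (y axis, ± SE) for each of the 78 members (x axis, in ascending order); filled points have edgeR adjusted p under 0.05, and the dashed line is the median of all genes tested, -0.05. The 31 filled points all lie below 0, between -1.60 and -0.56.

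In the other 3 settings few or no members differed between genotypes. In low M-CSF without LPS, 3 members were higher and 1 lower in T2KO cells, while 7.74% of all genes were higher and 8.97% lower. The balance turned with the setting: 1 was higher and 2 were lower with RLE scaling, and likewise with the 2 groups fitted alone. Mrpl24 was higher, at 91.2, 61.5, 86.2 and 67.5 CPM in T2KO against 50.3, 48.9, 45.8 and 53.5 CPM in WT cells (0.62 ± 0.17, adjusted p = 0.0073), with every T2KO library above every WT library. Mrpl41 (0.67 ± 0.23, adjusted p = 0.036) and Mrpl4 (0.56 ± 0.20, adjusted p = 0.042) were higher and Mrpl42 was lower (-0.56 ± 0.20, adjusted p = 0.044). These last 3 calls were each lost when single libraries were left out: T2KO library 1 for Mrpl41 and Mrpl4, and WT library 2 for Mrpl42, which held 92.8 CPM against 50.4 to 56.1 CPM in the others. The count of 4 became 1 without library 1 of the T2KO group (all genes 12.9%) and 0 with the pairs summed (all genes 5.17%). It became 1 without library 2 and 2 without library 4 of the WT group (all genes 11.1% and 14.6%).

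In normal M-CSF, 0 members differed between the genotypes without LPS (edgeR; 4 at an unadjusted p under 0.05, DESeq2 0), where 1.86% of all genes did, 0.747% being higher and 1.11% lower. With LPS, 0 members differed as well (edgeR; 5 at an unadjusted p under 0.05, DESeq2 1), where 4.04% of all genes did, 1.98% being higher and 2.05% lower. The summed level in T2KO cells was 101%, 101% and 97.8% of the WT level in low M-CSF without LPS, normal M-CSF without LPS and normal M-CSF with LPS.

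Whether the genotype difference itself varied was tested by interaction terms, which share the low M-CSF LPS libraries with the comparison above. The genotype difference was more negative with than without LPS in low M-CSF for 21 members and more positive for 0 (all genes 8.49% and 7.52%). Mrpl41 (-2.27 ± 0.43, adjusted p = 0.00045), Mrpl12 (-1.34 ± 0.30, adjusted p = 0.0023) and Mrps34 (-1.84 ± 0.41, adjusted p = 0.0024), a protein that the mouse small subunit needs for stability, had the smallest p. Mrps34 had 6, 15, 8 and 18 counts in T2KO cells of low M-CSF with LPS. Its gene overlaps Nme3 on the same strand and Mapk8ip3 on the other. The 21 fell to 12 without library 1 of the T2KO group with LPS (all genes 10.9%). They fell to 6 with the compared groups fitted alone (all genes 8.87%) and 1 with the pairs summed (all genes 0.757%). In normal M-CSF the same term passed for 0 members (edgeR; 4 at an unadjusted p under 0.05, DESeq2 0; all genes 0.534%).

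With LPS, the genotype difference was more negative in low than in normal M-CSF for 8 members and more positive for 0 (all genes 3.29% and 2.2%, 5.49% in either direction). The 8 were Mrpl15, Mrpl30, Mrpl34, Mrpl45, Mrpl55, Mrps14, Mrps18a and Mrps18c. Mrps18a (-1.16 ± 0.29, adjusted p = 0.014) led. This count rested on single libraries. It was 2, 4, 4 and 14 without T2KO library 1, 2, 3 or 4 of low M-CSF (all genes 3.12%, 4.52%, 4.05% and 7.05%). It was 3, 5, 5 and 5 without T2KO library 1, 2, 3 or 4 of normal M-CSF (all genes 4.15%, 3.69%, 3.28% and 4.21%). Without WT library 4 of low M-CSF it was 5 (all genes 3.18%). Without WT library 2, 3 or 4 of normal M-CSF it was 3, 5 and 3 (all genes 2.83%, 4.45% and 3.35%). It was 0 with the pairs summed. With T2KO library 1, 2 or 3 of low M-CSF left out, the members' share was close to that of all genes. Without LPS the term passed for 0 members (edgeR; 8 at an unadjusted p under 0.05, DESeq2 1; all genes 4.62%, 1.41% more positive and 3.21% more negative). There 1 passed without T2KO library 1 of low M-CSF (all genes 3.98%) or T2KO library 2 or 4 of normal M-CSF (3.92% and 4.47%). Likewise 1 passed without WT library 4 of low M-CSF (4.48%).

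Other quantities differed between the genotypes in the same setting. The 10 neutrophil markers found in the table, of 11 listed, summed to 233 to 397 CPM in T2KO and 181 to 207 CPM in WT cells of low M-CSF with LPS, and none of the 10 was at 0 in all libraries. Of the 9 markers tested there, 1 was higher and 0 lower in T2KO cells (all genes 8.2% and 10.9%). Without LPS in low M-CSF the 10 neutrophil markers summed to 153 to 222 CPM in T2KO and 60.3 to 98.96 CPM in WT cells. In that setting 6 of the 9 tested were higher and 0 lower in T2KO cells (all genes 7.74% and 8.97%). The 20 cell cycle genes summed to 547 to 803 CPM in T2KO and 647 to 1503 CPM in WT cells, and 12 were lower in T2KO cells. In low M-CSF without LPS the cell cycle sums stood farther apart, at 291 to 508 CPM in T2KO and 1107 to 2104 CPM in WT cells, while the members' summed level was 101% of WT. The 6 osteoclast markers summed to 17.0 to 35.9 CPM in T2KO and 45.2 to 81.4 CPM in WT cells with LPS, with 1 of them, Calcr, at 0 in all libraries. The part of neutrophil, osteoclast and cell cycle transcripts in the members' difference was not tested.

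LPS moved members in both directions, and the balance varied with M-CSF and genotype. In each comparison the share of members that passed in either direction was below that of all genes. In low M-CSF, 48 of 78 passed in T2KO and 35 in WT cells (all genes 67.5% and 60.7%). In normal M-CSF, 21 passed in T2KO and 9 in WT cells (all genes 42.7% and 36.1%). In T2KO cells of low M-CSF, 42 members were lower and 6 higher with than without LPS, where 41.0% of all genes were lower and 26.5% higher. The members' share of lower calls was above and that of higher calls below the share of all genes, and their median of -0.58 stood beside -0.36 for all genes (-0.47 and -0.25 with RLE scaling, a distance of -0.22 with either). In WT cells of low M-CSF, 17 were lower and 18 higher (all genes 33.6% and 27.0%), with medians of -0.06 and -0.18. In normal M-CSF, 8 were lower and 13 higher in T2KO cells (all genes 21.8% and 20.9%, 42.7% in either direction), and 2 lower and 7 higher in WT cells (all genes 17.9% and 18.3%). With libraries summed in pairs, 22 members passed in WT cells of low M-CSF (all genes 46.6%), and 7 in T2KO and 2 in WT cells of normal M-CSF (all genes 26.7% and 21.6%). The near balance in WT cells of low M-CSF became 14 higher and 17 lower with no filter, and that in T2KO cells of normal M-CSF became 3 higher and 4 lower with the pairs summed. The medians of members and all genes were 0.12 and -0.05 in T2KO and 0.13 and -0.04 in WT cells.

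The summed level with LPS was 79.9% of the level without it in T2KO cells of low M-CSF. It was 108% in WT cells of low M-CSF, 107% in T2KO and 111% in WT cells of normal M-CSF. These last 3 values rest on the composition scaling: in raw CPM they were 63.7%, 74.4% and 82.4%, below the level without LPS. T2KO cells of low M-CSF were lower on every scale, at 86.4% with RLE scaling and 41.5% in raw CPM.

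Mrpl52 (chromosome 14, 54426909 to 54429750), a large-subunit protein without a bacterial counterpart, had the largest LPS rise in all 4 comparisons. With LPS it had 206, 191, 258 and 252 CPM in T2KO cells of low M-CSF, against 88.1, 56.5, 71.6 and 54.5 CPM without LPS (1.75 ± 0.18, adjusted p = 7.2e-11). In WT cells of low M-CSF it had 205, 303, 236 and 307 CPM with and 62.0, 45.7, 63.3 and 69.2 CPM without LPS (2.13 ± 0.18, adjusted p = 7.6e-13). Every LPS library was above every library without LPS, also in normal M-CSF, where the fold changes were 1.44 and 1.59 (adjusted p = 1e-08 in T2KO and 1.5e-09 in WT cells). No M-CSF comparison passed for Mrpl52.

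Mrpl39, a relative of threonyl-tRNA synthetase, was higher with LPS in all 4 comparisons: by 0.98 ± 0.17 in T2KO and 0.62 ± 0.18 in WT cells of low M-CSF, and by 1.28 ± 0.17 in T2KO and 0.96 ± 0.17 in WT cells of normal M-CSF. With low M-CSF it fell by 0.46 to 0.81 in all 4 M-CSF comparisons. With LPS it had 42.0, 35.99, 43.0 and 32.5 CPM in T2KO cells of low M-CSF, against 17.5, 21.1, 18.0 and 21.1 CPM without LPS, and the groups were separate. Mrpl3, Mrpl13, Mrpl54, Mrps7, Mrps10 and Mrps18c were higher with LPS in 3 or more of the 4 comparisons, together with Mrpl39 and Mrpl52. Mrps10, for one, rose by 0.77 ± 0.17 in T2KO and 0.80 ± 0.17 in WT cells of low M-CSF (adjusted p = 0.00012 and 0.0001).

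Mrpl18, Mrpl41, Mrpl42, Mrpl43, Mrpl49, Mrpl51, Mrps26 and Mrps35 were lower with LPS in 3 or more of the 4. Mrpl41 had 2.16, 3.67, 2.30 and 0.971 CPM with LPS in T2KO cells of low M-CSF, against 38.4, 21.4, 24.4 and 24.0 CPM without (-3.50 ± 0.31, adjusted p = 1.9e-12). In WT cells of low M-CSF it had 5.30, 10.3, 8.48 and 4.71 CPM with and 22.3, 12.7, 15.9 and 16.5 CPM without LPS (-1.23 ± 0.27, adjusted p = 0.00019). Both pairs of groups were separate. In normal M-CSF the falls were smaller, -0.76 in T2KO and -0.68 in WT cells, and the WT call was lost without library 2 with LPS or library 1 without it. Mrpl43 fell by 1.56 on the log2 scale in T2KO and by 1.25 in WT cells of low M-CSF. Mrpl2 fell by 1.72 in T2KO and by 1.42 in WT cells of low M-CSF, and in normal M-CSF its values of -0.15 and -0.09 did not pass. Mrpl49 fell by 1.53 in T2KO and by 1.74 in WT cells of low M-CSF.

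Mrpl12 was lower with LPS in T2KO cells of low M-CSF (-1.14 ± 0.21, adjusted p = 1.8e-05), while its value in WT cells was 0.20 ± 0.20 (adjusted p = 0.4). The interaction given above is the test of that difference. In WT cells of low M-CSF, Mrps18b rose by 1.46 ± 0.23 (adjusted p = 8.7e-07), and in T2KO cells its value was 0.34 ± 0.22 (adjusted p = 0.18, interaction -1.12 ± 0.32, adjusted p = 0.015). The LPS response was more negative in low than in normal M-CSF for 36 members and more positive for 1 in T2KO cells (all genes 22.0% and 13.3%, 35.3% in either direction), led by Mrpl41 (-2.75 ± 0.39, adjusted p = 1.8e-06). In WT cells it was more negative for 5 and more positive for 4 (all genes 12.8% and 10.7%). With libraries summed in pairs these terms passed for 10 members in T2KO and 1 in WT cells (all genes 14.2% and 7.1%). In WT cells the balance turned to 4 more positive and 3 more negative with RLE scaling. Mrpl36 and Mrpl48 passed in none of the 12 simple comparisons.

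**Figure D5:**
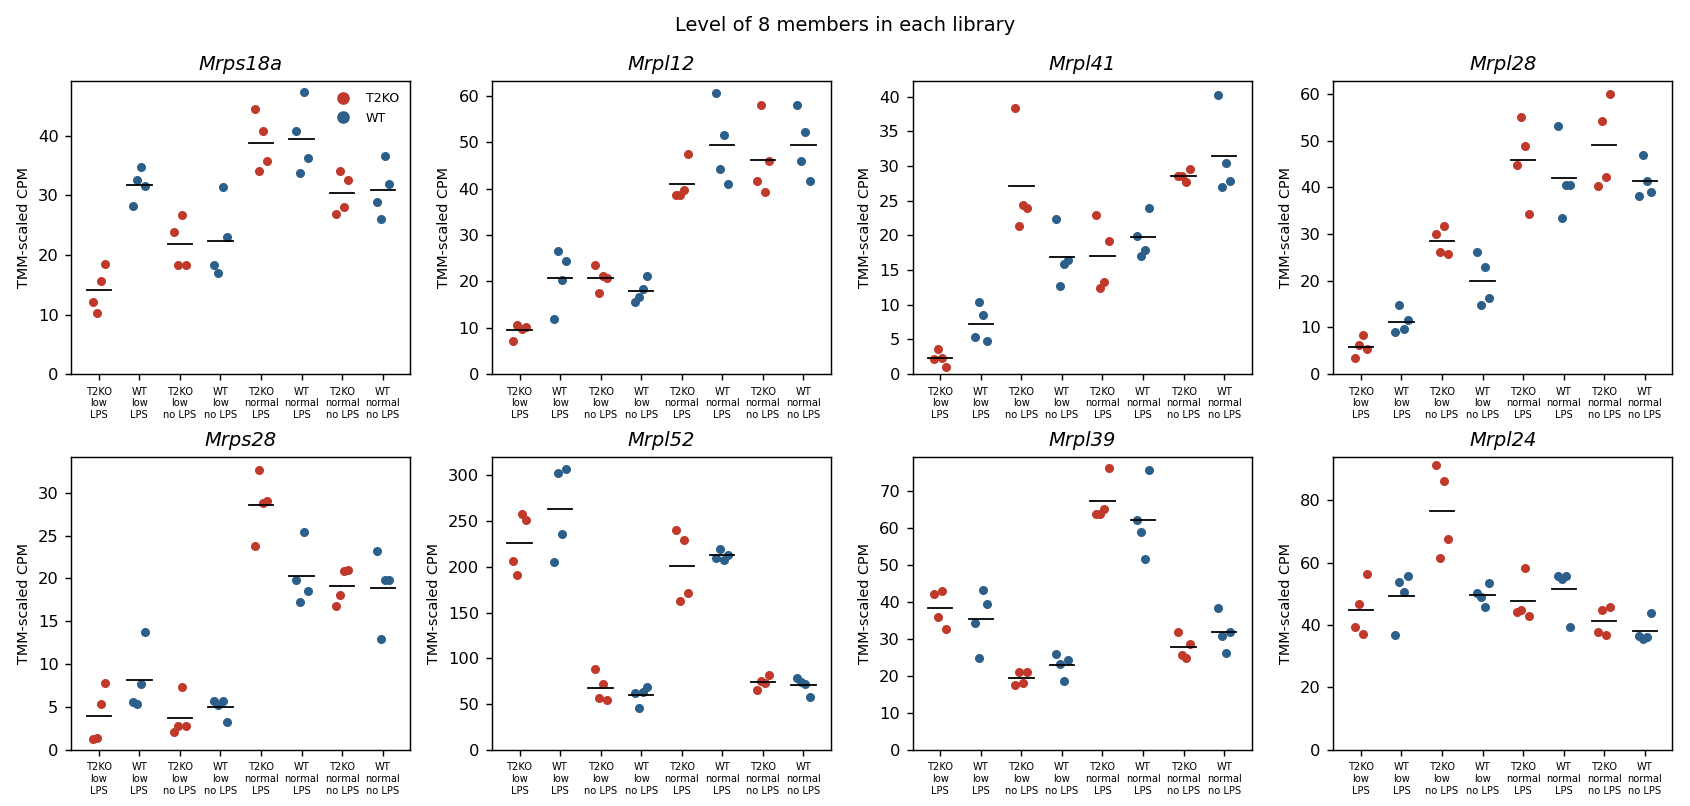
Level in TMM-scaled CPM (y axis, from 0) of 8 members in every library (points, 4 per group) with the group mean (line), over the 8 groups (x axis). Mrps18a, Mrpl12, Mrpl41 and Mrpl28 are lower in T2KO than WT libraries of low M-CSF with LPS, Mrps28 is low throughout low M-CSF, Mrpl52 and Mrpl39 are high with LPS, and Mrpl24 is highest in T2KO cells of low M-CSF without LPS.

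Genes that act with the mitochondrial ribosome were read from lists of known members. Of all genes, 32.8% were lower in low M-CSF in T2KO and 24.2% in WT cells with LPS, and 21.7% and 21.9% without LPS. Between the genotypes in low M-CSF with LPS, 10.9% of all genes were lower in T2KO cells. The 5 ribosomal proteins that carry other names were tested as well, and 4 of 5 were lower in low M-CSF with LPS in T2KO and in WT cells alike. Dap3, a GTP-binding protein of the small subunit, was lower by -1.29 ± 0.20 in T2KO and -1.23 ± 0.20 in WT cells (adjusted p = 1.4e-06 and 6.6e-06). Chchd1, also of the small subunit, was lower by -2.03 ± 0.17 and -1.19 ± 0.16 (adjusted p = 1.3e-12 and 1.9e-07).

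Of 22 protein import genes, 18 were lower and 1 higher in low M-CSF in T2KO cells with LPS, and 14 were lower and 1 higher in WT cells. Timm13, a chaperone of the intermembrane space, was lower by -1.92 ± 0.16 in T2KO cells (adjusted p = 4.4e-12). Tomm5, a small part of the outer membrane translocase, was lower by -2.01 ± 0.18 (adjusted p = 1.6e-11). Without LPS, 18 were lower in T2KO and 17 in WT cells, and 0 were higher. Between genotypes in low M-CSF with LPS, 11 of the 22 were lower in T2KO cells and 0 higher, with a median of -0.47. Pmpca, of the presequence peptidase, had the smallest p (-0.93 ± 0.19, adjusted p = 0.00053). That count of 11 was 5 with the 2 groups fitted alone and 2 with the pairs summed.

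Of 20 genes listed for mitochondrial tRNA charging, 14 were lower and 1 higher in low M-CSF in T2KO cells with LPS and 8 and 0 in WT cells. Without LPS, 4 were lower and 3 higher in T2KO and 4 lower and 2 higher in WT cells. Those shares of lower calls were close to the shares of all genes. Between the genotypes in low M-CSF with LPS, 2 of the 20 were lower in T2KO cells, also close to the share of all genes (10.9%). Those 2 were the synthetase gene Sars2 (-1.90, adjusted p = 0.004) and Qrsl1, for an amidotransferase subunit (-1.82, adjusted p = 0.018). Of 16 translation factor genes, 9 were lower and 1 higher in low M-CSF in T2KO cells with LPS, led by Tsfm, the elongation factor that recharges Tufm (-1.90 ± 0.28, adjusted p = 4.6e-07). In WT cells with LPS, 8 were lower and 2 higher. Without LPS, 6 were lower and 2 higher in T2KO and 5 lower and 3 higher in WT cells. Of 26 genes of ribosome assembly and rRNA modification, 12 were lower and 1 higher in low M-CSF in T2KO cells with LPS. Rbfa, a maturation factor of the small subunit, led these (-2.04 ± 0.23, adjusted p = 2.7e-09). In WT cells 7 were lower with and 5 without LPS, shares close to those of all genes (24.2% and 21.9%). In T2KO cells without LPS 1 was lower, a share below that of all genes (21.7%).

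The cytosolic ribosomal proteins, whose ribosome makes the members, gave 22 lower and 0 higher of 81 in T2KO against WT cells of low M-CSF with LPS, with a median of -0.37. With low M-CSF, 61 were lower and 4 higher in T2KO and 17 lower and 1 higher in WT cells with LPS. The share of lower calls in those WT cells was no larger than that of all genes (24.2%). Without LPS, 22 were lower and 1 higher in T2KO and 19 lower and 2 higher in WT cells (all genes 21.7% and 21.9% lower). Among 10 tested regulators of mitochondrial biogenesis, 9 were higher and 0 lower with LPS in T2KO cells of low M-CSF (all genes 26.5% and 41.0%). Myc rose by 3.21 ± 0.36 (adjusted p = 9.9e-10) and Ppargc1b by 2.29 ± 0.33 (adjusted p = 1.5e-07), and Gabpb1 and Gabpa, the GABP subunits, rose by 1.25 ± 0.19 and 0.88 ± 0.19 (adjusted p = 4e-07 and 0.00011). Without LPS, Myc was lower in low M-CSF in T2KO cells (-3.55 ± 0.35, adjusted p = 9.8e-11). Of the 10 regulators without LPS, low M-CSF gave 0 higher and 4 lower in T2KO and 2 higher and 3 lower in WT cells. With LPS, 5 were higher and 1 lower in T2KO and 3 higher and 0 lower in WT cells. In either direction, the shares of all genes were 48.2% and 44.3% without LPS and 59.2% and 45.6% with LPS.

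Many members share a start region with another gene. The start of a protein-coding gene on the opposite strand lay within 1000 bases for 33 of 78 members (42.3%), against 17.3% of 10644 other protein-coding genes tested. Mrpl46 and Mrps11 face each other, and 28 of the other members had a partner that was tested. In T2KO cells with LPS, 25 of the 28 members were lower in low M-CSF and 0 higher, while 12 of the 28 partners were lower and 5 higher. Mrpl40 and Hira, a histone chaperone gene, start 175 bases apart and had log2 fold changes of -2.28 and 1.34. Mrpl30 and Mitd1, 66 bases apart, had -1.25 and 0.92. Mrps12 and Sars2, 172 bases apart, were both lower, with -1.25 and -2.50. Between the genotypes in low M-CSF with LPS, 12 of the 28 members were lower in T2KO cells and 0 higher, while 5 of the 28 partners were lower and 1 higher.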

How the data were processed

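Polyadenylated RNA was captured on oligo-dT beads, copied with barcoded oligo-dT primers and pooled by Actb qPCR, per the labels' protocols, which mention strand-specific libraries, 12 cycles of PCR and no molecular identifiers. Limits from counts therefore cover counting error only, and 3 counts, the limit that a count of 0 allows at 95% confidence, were 0.192 to 0.978 CPM. The SE of a fold change is its absolute log2 value over the square root of the quasi-likelihood F. It therefore includes the spread between libraries. The authors deposited raw counts per gene, which were not normalised. STAR, HTSeq, DESeq2 and mm10 are named, without versions, in the submitters' processing notes, and the strand setting of the counting is not given in the sources used here. Entrez identifiers were matched to RefSeq symbols (23969 of 24885, 99.48% of counts), and positions came from GENCODE M21 (GRCm38). Of the members, 26 overlap another protein-coding gene, 4 on the same strand and 23 on the other, so their reads may be shared.

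All 32 libraries were fitted in 1 model with a mean per group (edgeR 4.0.16, R 4.3.3): TMM scaling, filterByExpr, which kept 11244 genes and all 78 members, two-sided quasi-likelihood tests, and Benjamini-Hochberg adjustment over all genes tested at 0.05. Trem2 was compared by an exact permutation test on log2(CPM + 1). The alternatives were RLE scaling, raw CPM for sums, DESeq2 1.42.0, no filter, the compared groups alone, libraries summed in pairs, a replicate block and each library left out. Python 3.11.15 with pandas 2.3.3, scipy 1.17.1 and matplotlib 3.10.9 made the summaries.

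Members, lists and tests were chosen with earlier results of these data known. Members were named when called with the 4 largest rises or falls of a comparison, when called in 6 or more of the 8 medium and LPS comparisons, by the 6 smallest p between genotypes, by the 3 smallest p of an interaction, when called against the majority, or for 10 fixed roles; from each list the 4 genes with the smallest p could be named. Mrpl21 and Mrps11 as highest, Mrpl30, Mrpl36, Mrpl40, Mrpl48 and neighbouring genes were chosen after their values were seen.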

Additional observations from a re-analysis of the deposited data

Results flagged for a closer look

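Among 344 sets of 4 libraries (41 members, the summed level and Trem2 in 8 groups), 12 held 1 library far from the other 3; chance alone gives about 1 in 20. In low M-CSF with LPS, WT library 4 had 22.67 CPM of Mrpl11 against 13.74 to 14.88 CPM in the others. In low M-CSF without LPS, T2KO library 1 had 55.62 CPM of Mrpl51 (others 34.86 to 37.41), T2KO library 3 had 7.34 CPM of Mrps28 (others 2.13 to 2.82), WT library 2 had 92.84 CPM of Mrpl42 (others 50.36 to 56.14) and WT library 3 had 34.01 CPM of Mrpl35 (others 29.88 to 30.09).

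In normal M-CSF with LPS, T2KO library 4 had 47.49 CPM of Mrpl12 (others 38.56 to 39.69) and 76.21 CPM of Mrpl39 (others 63.57 to 65.09), T2KO library 3 had 58.42 CPM of Mrpl24 (others 43.00 to 44.74) and WT library 4 had 39.33 CPM of Mrpl24 (others 54.80 to 55.85). In normal M-CSF without LPS, T2KO library 4 had 18.29 CPM of Mrps6 (others 14.72 to 15.25), WT library 4 had 43.75 CPM of Mrpl24 (others 35.67 to 36.43) and WT library 1 had 43.34 CPM of Mrpl3 (others 31.09 to 32.89).

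Effects that differed between groups by an interaction term in edgeR were the following. With LPS, 8 members had a T2KO minus WT difference that varied with M-CSF, led by Mrps18a (-1.16, adjusted p = 0.014), Mrpl55 (-1.24, adjusted p = 0.022) and Mrpl15 (-0.93, adjusted p = 0.025). In low M-CSF, 21 members had a genotype difference that varied with LPS, led by Mrpl41 (-2.27, adjusted p = 0.00045), Mrpl12 (-1.34, adjusted p = 0.0023) and Mrps34 (-1.84, adjusted p = 0.0024). In T2KO cells, 37 members had an LPS response that varied with M-CSF, led by Mrpl41 (-2.75, adjusted p = 1.8e-06), Mrpl28 (-2.14, adjusted p = 3.3e-06) and Mrpl34 (-1.94, adjusted p = 4.4e-06). In WT cells there were 9, led by Mrpl35 (1.70, adjusted p = 0.0013), Mrpl43 (-0.98, adjusted p = 0.0023) and Mrpl2 (-1.33, adjusted p = 0.0028). The Mrpl35 value rests on WT libraries 1 and 3 of low M-CSF with LPS, and the Mrpl55 and Mrpl15 terms between genotype and M-CSF were lost when single libraries were left out.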

How the results depend on the processing

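No call of a named member changed direction under these alternatives, but the balance of higher and lower calls turned in 4 comparisons: T2KO against WT in low M-CSF without LPS (1 higher and 2 lower with RLE and with the compared groups alone), LPS in WT cells of low M-CSF (14 and 17 with no filter, and more lower than higher calls without WT library 2 or 4 with LPS or 1, 3 or 4 without it), LPS in T2KO cells of normal M-CSF (3 and 4 with pairs summed) and M-CSF by LPS in WT cells (4 and 3 with RLE, 6 and 5 with DESeq2, and 4 and 3 without WT library 1 of low M-CSF with LPS, 3 of low M-CSF without LPS or 1 of normal M-CSF with LPS). Summing libraries 1 with 3 and 2 with 4 moved most counts of members: T2KO against WT in low M-CSF to 0 without and 4 with LPS, low against normal M-CSF without LPS to 26 in T2KO and 26 in WT cells, LPS to 7 in T2KO and 2 in WT cells of normal M-CSF and 22 in WT cells of low M-CSF, genotype by M-CSF with LPS to 0, genotype by LPS in low M-CSF to 1, and M-CSF by LPS to 10 in T2KO and 1 in WT cells. Fitting the compared groups alone gave 10 for the genotypes in low M-CSF with LPS, 2 in normal M-CSF with LPS, 4 for genotype by M-CSF with LPS and 6 for genotype by LPS in low M-CSF. RLE scaling gave 5 for genotype by M-CSF with LPS. DESeq2 gave 1 for the genotypes in normal M-CSF with LPS and 1 for genotype by M-CSF without LPS, and no filter gave 1 there and 2 for the genotypes in low M-CSF without LPS. The first 2 alternatives use fewer libraries and refit the filter and the scaling; the cause was not tested for any.

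No pairing by replicate number was clear: the deviations of same-numbered libraries had correlations of -0.305 to 0.269. These values cannot exclude a pairing. All 4 were positive for LPS in WT cells of normal M-CSF (0.0762 to 0.269) and for the genotypes in normal M-CSF with LPS (0.0491 to 0.138). With the replicate block, the count for the genotypes in low M-CSF was 2 without LPS and 30 with LPS.

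With each library left out, the counts were 20 to 33 for the genotypes in low M-CSF with LPS, 1 to 3 without LPS, 2 to 14 for genotype by M-CSF with LPS, 0 to 1 without LPS and 12 to 25 for genotype by LPS in low M-CSF. They were 34 to 46 and 43 to 52 for M-CSF without LPS in T2KO and WT cells, 64 to 69 and 48 to 55 with LPS, 45 to 50 and 28 to 33 for LPS in T2KO and WT cells of low M-CSF, 17 to 22 and 7 to 12 in normal M-CSF, and 31 to 40 and 6 to 9 for M-CSF by LPS. Of 73 calls of named members, DESeq2 kept 73, RLE 71, no filter 70, the block 71, the compared groups alone 66 and summed pairs 50.

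The summed level in raw CPM was 1246.1 in T2KO and 1873.8 in WT cells of low M-CSF with LPS, 3000.4 and 2942.5 without LPS, 3591.3 and 3898.3 in normal M-CSF with LPS, and 4825.7 and 4733.5 without LPS. With RLE scaling it was 2130.9 in T2KO cells of low M-CSF with LPS and 3729.5 in T2KO and 3800.2 in WT cells of normal M-CSF with LPS. The shallowest libraries, of low M-CSF with LPS, limit 10 members that had under 40 counts in each of them, Mrpl2, Mrpl28, Mrpl41, Mrps28, Mrps34 and Mrps35 among them.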
